A study of Mus musculus with 96 samples.

Results

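The liver response to sleep deprivation at circadian time 24 (CT24) was described from the genes whose RNA counts differed between sleep-deprived and control mice at that time, and the same genes were then followed at the 5 other times of the series. The genes were chosen by their own values: 2 sleep-deprived (SD) and 2 control (CON) liver libraries were compared, with the spread between replicates estimated over all 24 liver libraries, and a gene was called at an adjusted p under 0.05. Of 19708 genes tested, 47 were called (0.238%), 8 of them higher in SD (0.0406%) and 39 lower (0.198%). All values at CT24 below therefore describe how the genes were picked and carry no test of their own. The tests of these genes came from the 20 liver libraries of the other times and from the CT24 libraries of kidney, forebrain and cerebellum. The libraries of the other organs took no part in the choice. The 20 liver libraries entered it through the spread, the filter on low counts and the scaling, though not through the CT24 difference itself. The test over the other times is therefore not fully independent of the choice.

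The 4 CT24 liver libraries belong to a series of 96 libraries from 4 organs. All mice were wild-type (WT) male C57BL/6 animals aged 6 to 8 weeks. SD mice walked for 10 h in a slowly turning drum during their normal resting phase, with food and water at hand. CON mice were left alone, and both kinds had been housed under a 12 h light and dark cycle. The study states that collection for this series took place in constant darkness. Organs were then collected at CT4, CT8, CT12, CT16, CT20 and CT24, with 2 libraries for each organ, condition and time, so liver had 12 CON and 12 SD libraries. Forced walking and loss of sleep come together in this treatment and cannot be told apart. In all liver libraries the title gave these times while a second label gave a time 4 h earlier (DD20 for CT24), and the title was used. The study describes the 2 libraries of a group as biological repeats, and the labels do not say whether each came from a separate mouse, so p-values measure the spread between these libraries.

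The liver clears foreign and endogenous compounds in steps. Cytochrome P450 enzymes and oxidases add reactive groups, glutathione transferases couple the products to glutathione, and ABC transporters export conjugates. The organ also makes glucose when food is short, with phosphoenolpyruvate carboxykinase at the head of that pathway. Few adult hepatocytes divide, so transcripts of DNA replication and mitosis are low in liver and come from hepatocytes and from the smaller cell types alike. Kupffer cells and lymphocytes of the liver carry much of its interferon-inducible RNA.

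Depth ranged from 32.0 M to 48.9 M gene counts per liver library, 39.3 M to 48.9 M in CON and 33.9 M to 38.7 M in SD at CT24, so a level of 1 CPM (1 count per 1 M gene counts) rested on at least 32.0 counts. Levels are given as scaled CPM, which are CPM divided by the library's TMM factor. These factors were 0.987 to 1.05 in the CT24 CON libraries and 0.887 to 0.966 in the SD libraries, and the 100 most abundant genes took 36 to 36.6% and 37.8 to 39.6% of the counts. Hepatocyte markers were abundant in all 4 libraries, with a summed level of 85048 to 89722 scaled CPM in CON and 109062 to 122439 in SD. The library labelled CT16 SD replicate 1 stood apart, since its nearest library was CT16 CON replicate 1, whereas its partner lay nearest to an SD library of CT20. Results of the 5 other times were therefore also computed without it.

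The call at CT24 rested on few libraries. With CON replicate 2 or SD replicate 2 left out, edgeR called 0 genes. An unadjusted p under 0.05 was then found for 1284 and 1437 genes. Without CON replicate 1 it called 303 genes and without SD replicate 1 it called 35. Without the library labelled CT16 SD replicate 1, a choice made after seeing the data, 186 genes were called, and all 47 genes described here were among them. DESeq2 called 434 genes, which also held all 47. The adjusted p-values lay within 0.0444 and 0.0495, just under the threshold. The 3 genes just inside it were Ces3b, Gsta1 and Gstm2-ps1, each at 0.0495, and the 3 just outside were Gm45609 at 0.0505, Plek at 0.0508 and Ripk3 at 0.0508.

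**Figure D1:**
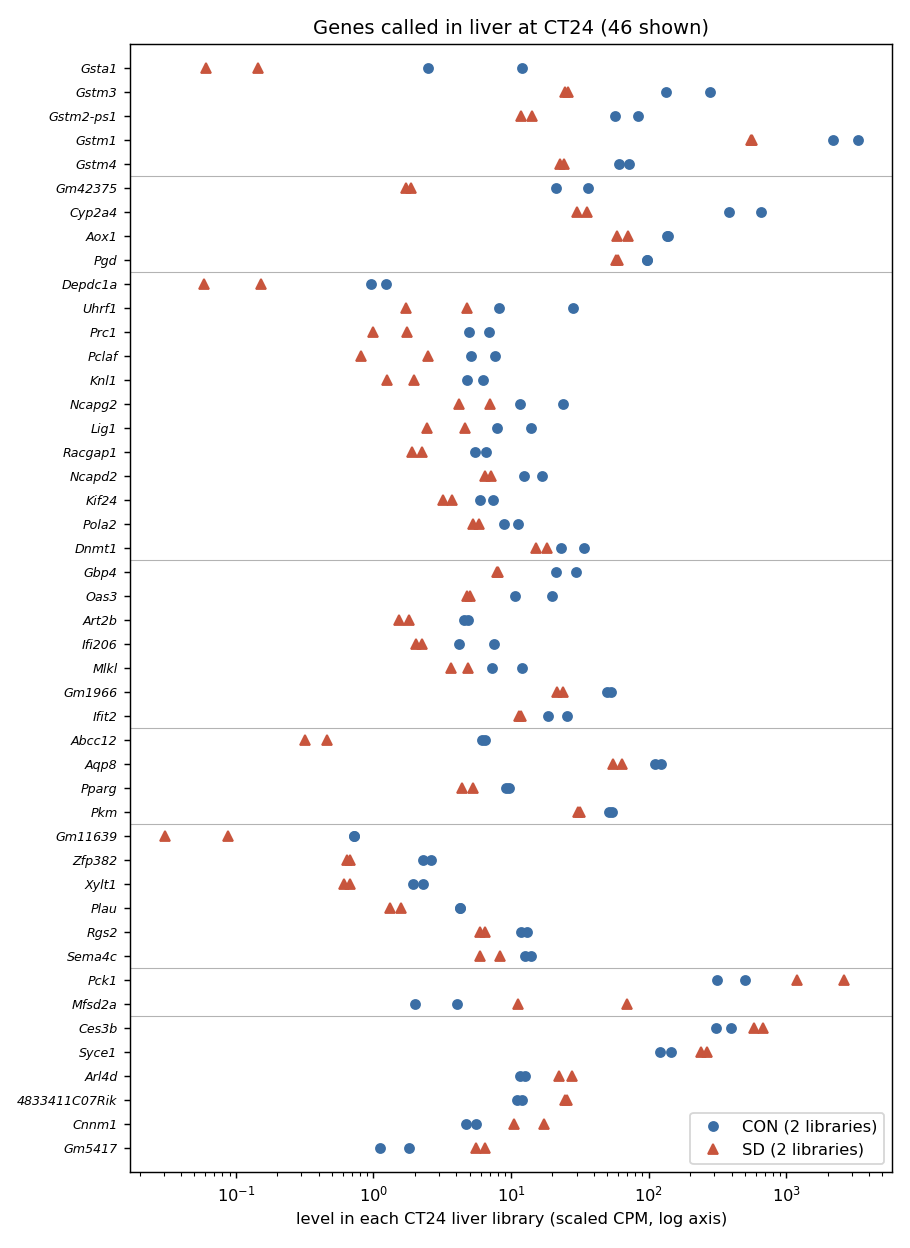
Level of 46 of the 47 called genes in each of the 4 CT24 liver libraries, in scaled CPM on a log axis, with circles for the 2 CON and triangles for the 2 SD libraries. Lines part the genes by role, from glutathione transferases at the top to the 8 genes higher in SD at the bottom, and the 2 conditions do not overlap in any gene, which the choice of genes favours.

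The largest falls were in genes of drug and glutathione metabolism. Of the called genes, 5 are glutathione transferase genes or derive from one, and 4 more code for or overlap other drug and redox enzymes. Gstm1, a mu-class glutathione transferase, stood at 3308 and 2184 scaled CPM in the CON libraries and at 568 and 552 in the SD libraries. This was a fall of 2.29 on the log2 scale (SE 0.47, adjusted p = 0.0495), about 4.91-fold. Gstm3, its neighbour on chromosome 3 (107963696 to 107969283, GRCm38; Gstm1 at 108012255 to 108017973), stood at 279 and 133 in CON and at 24.7 and 25.8 in SD (log2 fold change -3.03, SE 0.52, adjusted p = 0.0444). In both genes the SD libraries lay close together and the CON libraries differed among themselves by more. The third gene of that cluster among those called, Gstm4 (108040408 to 108044894), fell by 1.5. Gstm2-ps1, a processed pseudogene on chromosome 5, read 84.3 and 57.1 in CON and 11.9 and 14.1 in SD (log2 fold change -2.45, SE 0.49, adjusted p = 0.0495). The alpha-class gene Gsta1 showed the steepest change, with 11.9 and 2.47 in CON against 0.0611 and 0.146 in SD (log2 fold change -6.07, SE 1.24, adjusted p = 0.0495). The SD values of Gsta1 were 2 and 5 counts, and the ratio of the pooled levels, 72.5, had an exact 95% counting interval of 35 to 181.

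These genes share sequence, which bears on how far each can be told from its relatives. Of the 50-base words in the Gsta1 transcripts, 90.5% also occur in transcripts of other genes, Gsta2 first among them. The share was 46.9% for Gstm2-ps1, 28.8% for Gstm3 and 18.9% for Gstm1, mostly with other mu-class genes and their pseudogenes. Only reads placed uniquely were counted, so the values stand for the unique parts and assignment within the group is uncertain. Among all 21 glutathione transferase genes tested, a set drawn up after the values were seen, 12 had a negative change at CT24 and 4 were called. Over the 5 other times 6 passed as lower and 4 as higher in SD, so members of the family moved in both directions. Of all genes 6.61% passed as lower and 5.76% as higher there. Gsta3, the alpha-class gene with 1404 and 1219 scaled CPM in CON, had 1322 and 1261 in SD.

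Cyp2a4 codes for a steroid 15-alpha-hydroxylase that is known for female-biased expression in mouse liver. It stood at 386 and 656 scaled CPM in CON and at 30.2 and 35.4 in SD (log2 fold change -3.99, SE 0.67, adjusted p = 0.0444), about 15.9-fold lower. Gm42375, annotated as antisense RNA that overlaps the start of Cyp2a4 on chromosome 7, moved with it, from 21.1 and 36.4 in CON to 1.71 and 1.86 in SD (log2 fold change -4.0, SE 0.67, adjusted p = 0.0444). Counting used strand, but 38.0% of the 50-base words of Cyp2a4 recur in other genes, chiefly Cyp2a5. Abcc12, an ABC transporter of the C family, fell from 6.51 and 6.11 to 0.458 and 0.320 (log2 fold change -4.01, SE 0.78, adjusted p = 0.0491). The remaining genes of this kind changed less. Aox1, the aldehyde oxidase, fell by 1.08, and Pgd, which makes NADPH in the pentose phosphate pathway, by 0.73. Of the 36 drug metabolism genes on a list, these same Cyp2a4, Gstm1, Gstm3 and Gsta1 were the 4 called. The list went in both directions, with 13 of 36 negative and a median of 0.22 at CT24. Over the 5 other times 7 of the list passed as lower and 8 as higher, where 6.61% and 5.76% of all genes did so. Ephx1, the microsomal epoxide hydrolase, read 508 and 558 in CON and 273 and 255 in SD (adjusted p = 0.0556). The median of all genes tested was -0.0047. Cyp2e1, the ethanol-inducible P450, read 3789 and 2848 in CON and 4979 and 5526 in SD without being called at CT24 (adjusted p = 0.0958), and passed as higher over the 5 other times (log2 fold change 0.47, adjusted p = 0.0013).

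Genes of DNA replication and mitosis made up the largest group, with 12 of the 39 lower genes. Uhrf1, which brings the maintenance methyltransferase to newly copied DNA, stood at 8.17 and 28 scaled CPM in CON and at 4.80 and 1.72 in SD (log2 fold change -2.47, SE 0.51, adjusted p = 0.0495). CON replicate 2 was over 3 times CON replicate 1, and without replicate 2 the log2 fold change was -1.32 and was not called. Prc1, which bundles microtubules between separating chromosomes, had 4.91 and 6.86 in CON and 1.74 and 0.990 in SD (log2 fold change -2.11, SE 0.43, adjusted p = 0.0495). Pclaf, a binding partner of the replication clamp, had 5.12 and 7.59 against 2.47 and 0.815 (log2 fold change -1.95, SE 0.37, adjusted p = 0.0491). In these genes SD replicate 2 was the lower of the SD libraries. Depdc1a, a gene of mitotic progression, was near the limit of measurement with 0.954 and 1.24 in CON and 5 and 2 counts in SD, for a pooled ratio of 10.4 (exact 95% counting interval 4.86 to 26.5, log2 fold change -3.34, adjusted p = 0.0491). The other 8 genes fell by 0.76 to 1.77. They were Knl1, a kinetochore scaffold, Ncapg2 and Ncapd2, subunits of the condensins, Lig1, the ligase that joins Okazaki fragments, Racgap1 of the cytokinetic centralspindlin complex, the kinesin Kif24, Pola2 of the polymerase alpha-primase and Dnmt1, the maintenance methyltransferase itself.

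The wider list of mitosis and replication genes leaned the same way. Of 26 tested, 25 had a negative change at CT24 with a median of -1.44, although Prc1 was the only one called. Cdk1, the mitotic kinase, read 9.08 and 11.1 in CON and 3.91 and 2.01 in SD (adjusted p = 0.0547), and Mki67 read 19.2 and 20.8 against 8.37 and 6.32 (adjusted p = 0.0854). Over the 5 other times 21 of the 26 passed as lower in SD and none as higher, with a median of -0.80. Of all genes 6.61% passed as lower and 5.76% as higher.

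Promoters of the 2 genes of this group that hold the letters of an E2F site are shown because E2F factors drive many replication genes. Windows of 250 bases before the RefSeq start site were read on GRCm38.p6, where 41 of the 47 genes had one. The letters GCGGGAA were searched on both strands and stand in capitals below, as found or as their reverse complement. The Uhrf1 window is chr17:56303087-56303336 on the plus strand, and that of Ncapg2 is chr12:116405186-116405435 on the plus strand.
Uhrf1: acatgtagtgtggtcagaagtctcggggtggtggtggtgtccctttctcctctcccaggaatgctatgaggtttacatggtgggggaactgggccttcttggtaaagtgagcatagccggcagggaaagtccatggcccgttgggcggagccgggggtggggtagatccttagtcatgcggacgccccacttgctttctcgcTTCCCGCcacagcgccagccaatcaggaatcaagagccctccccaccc
Ncapg2: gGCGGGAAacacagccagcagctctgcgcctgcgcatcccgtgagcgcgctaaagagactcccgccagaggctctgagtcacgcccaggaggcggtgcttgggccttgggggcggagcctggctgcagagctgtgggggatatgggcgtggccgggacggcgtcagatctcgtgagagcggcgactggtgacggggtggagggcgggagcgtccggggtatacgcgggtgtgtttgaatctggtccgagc
The match began 48 bases before the start of Uhrf1 and 249 bases before that of Ncapg2. It was found in 2 of 12 windows of the replication and mitosis genes and in 3.84% of 27025 windows over all genes. It was also in 1 of 6 windows of the interferon and leukocyte genes described below (Ifit2). The cell cycle homology letters TTTGAA were in 4 of the 12 (Depdc1a, Dnmt1, Ncapd2 and Ncapg2) and in 16.3% of all windows. They were also in 1 of 4 glutathione transferase windows (Gstm3) and 1 of 6 interferon and leukocyte windows (Ifi206). None of the 4 glutathione transferase windows held TGACNNNGC, the core of the antioxidant response element, which 10.1% of all windows hold.

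Interferon-inducible and leukocyte genes formed the second large group, with 8 of the 39 lower genes. Ifit2, an interferon-induced RNA-binding protein, stood at 18.6 and 25.7 scaled CPM in CON and at 11.3 and 11.7 in SD (log2 fold change -0.94, SE 0.18, adjusted p = 0.0491). The SD libraries lay together, well under both CON libraries. The other 6 genes named here fell by 1.17 to 1.67. Gbp4, an interferon-induced GTPase, changed most, followed by Oas3, which makes oligoadenylates in answer to double-stranded RNA, and Art2b, an ADP-ribosyltransferase of T cells. Ifi206, the necroptosis effector Mlkl and Gm1966, annotated as a pseudogene, followed. Part of Gm1966 (17.5% of its 50-base words) and of Ifi206 (25.6%) recurs in related genes, so those values are less certain. Of 31 listed interferon and MHC class I genes tested, 30 had a negative change at CT24 with a median of -0.72. Ifit2 alone was called, and Oasl2 read 12 and 16.9 in CON against 7.03 and 6.55 in SD (adjusted p = 0.0578). Over the 5 other times 20 of the 31 passed as lower and none as higher, where 6.61% and 5.76% of all genes did so.

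Promoters of Oas3 and Ifi206 are shown for the same reason, with the interferon-stimulated response element (GAAA, any 2 bases, GAAA, on either strand) in capitals. The Oas3 window is chr5:120777660-120777909 and the Ifi206 window chr1:173491319-173491568, both on the minus strand and written 5′ to 3′ along the gene.
Oas3: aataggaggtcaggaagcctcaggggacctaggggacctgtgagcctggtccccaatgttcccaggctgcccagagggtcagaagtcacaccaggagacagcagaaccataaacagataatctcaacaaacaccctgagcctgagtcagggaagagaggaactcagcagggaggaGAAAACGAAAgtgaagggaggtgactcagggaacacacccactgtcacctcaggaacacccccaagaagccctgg
Ifi206: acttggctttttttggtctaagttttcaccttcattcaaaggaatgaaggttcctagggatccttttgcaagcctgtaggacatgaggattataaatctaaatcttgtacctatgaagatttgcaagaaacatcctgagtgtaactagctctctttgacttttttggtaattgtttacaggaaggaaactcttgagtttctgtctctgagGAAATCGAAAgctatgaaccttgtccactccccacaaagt
The match began 75 bases before the start of Oas3 and 40 bases before that of Ifi206. These letters were in 3 of the 6 windows of this group, Gm1966 being the third, and in 3.04% of all windows. The RefSeq starts of Gm1966 and Ifi206 lie outside their GENCODE models, that of Ifi206 reaching only to 173491041. A match is a description of the letters and not evidence of binding.

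Markers of the cells that carry such genes were lower in SD as well. The 10 Kupffer cell and macrophage markers measured summed to 1414 to 1606 scaled CPM in CON and to 963 to 1037 in SD at CT24, with Cd68 listed at 0 throughout, and all 9 tested had a negative change. Lymphocyte markers summed to 98.0 to 109 in CON and 62.9 to 71.9 in SD (11 of 11 negative). Neutrophil markers summed to 11.5 to 13.2 and 6.06 to 6.66 (8 of 8 negative, Elane at 0), and cholangiocyte markers to 75.3 to 116 and 54.5 to 59.9 (8 of 8 negative). Sinusoidal endothelial markers were level, at 681 to 690 and 688 to 693. None of these marker genes was called at CT24. Over the 5 other times 8 of 9 macrophage, 8 of 11 lymphocyte and 5 of 8 neutrophil markers passed as lower, as did 6.61% of all genes. None of the cholangiocyte markers passed there, with 5 of 8 negative and a median of -0.027, and none of the sinusoidal endothelial markers did. Their part in the lower interferon and mitotic RNA was not tested, and in bulk tissue fewer cells of a type and less RNA per cell cannot be told apart.

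The other 10 lower genes had varied roles. Zfp382, a zinc finger gene, stood at 2.30 and 2.62 scaled CPM in CON and 0.672 and 0.641 in SD (log2 fold change -1.90, SE 0.37, adjusted p = 0.0491). Gm11639 averaged under 1 CPM and had 35 and 30 counts in CON against 1 and 3 in SD, a pooled ratio of 12.2 (exact 95% counting interval 4.54 to 46.1). The remaining 7 genes fell by 0.75 to 1.71. They were Xylt1, which starts glycosaminoglycan chains, the urokinase gene Plau, the G-protein regulator Rgs2, the semaphorin Sema4c, the water channel Aqp8, the nuclear receptor Pparg and the pyruvate kinase Pkm, besides Abcc12 described above.

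Among the 8 higher genes Mfsd2a and Pck1 changed most. Mfsd2a, a lysophospholipid transporter that liver induces on fasting, stood at 4.04 and 1.99 scaled CPM in CON and at 11.2 and 69.6 in SD (log2 fold change 3.73, SE 0.74, adjusted p = 0.0495). Pck1, the phosphoenolpyruvate carboxykinase of glucose production, stood at 499 and 315 in CON and at 1199 and 2632 in SD (log2 fold change 2.24, SE 0.41, adjusted p = 0.0491). The conditions did not overlap, but the SD libraries of both genes lay far apart, with SD replicate 2 the higher. Gm5417, a processed pseudogene, read 1.82 and 1.12 in CON and 5.59 and 6.49 in SD (log2 fold change 2.03, SE 0.40, adjusted p = 0.0495), and 96.7% of its 50-base words recur elsewhere, chiefly in Vkorc1l1, so its reads cannot be assigned with confidence. Cnnm1, of a family linked to magnesium transport, read 5.54 and 4.73 against 10.5 and 17.3 (log2 fold change 1.44, SE 0.26, adjusted p = 0.0467).

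The other 4 higher genes had SD libraries that agreed closely. The noncoding 4833411C07Rik read 11.9 and 11 in CON and 25.5 and 24.7 in SD (log2 fold change 1.13, SE 0.19, adjusted p = 0.0444). Arl4d, a small GTPase of the ADP-ribosylation factor family, read 11.6 and 12.7 against 22.2 and 27.5 (log2 fold change 1.03, SE 0.20, adjusted p = 0.0495). Syce1, known from the synaptonemal complex of meiosis, read 145 and 120.3 against 239 and 267 (log2 fold change 0.93, SE 0.19, adjusted p = 0.0495). Ces3b, a liver carboxylesterase, read 396 and 307 against 584 and 681 (log2 fold change 0.85, SE 0.17, adjusted p = 0.0495). For Ces3b, 26.2% of the 50-base words recur, in Ces3a.

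Lists around Pck1 were mostly positive at CT24, but no other gene on them was called. Of 20 glucocorticoid-responsive genes tested, 3 were negative and the median was 1.19. Their summed level was 3870.5 and 2969.6 scaled CPM in CON and 5831.7 and 10195.5 in SD. The SD libraries thus lay far apart here too, with SD replicate 2 the higher. Tat, a tyrosine-degrading enzyme, read 938 and 811 in CON and 1525 and 2511 in SD (adjusted p = 0.104), and the clock gene Per1 read 21.4 and 20.5 against 56.1 and 51.6 (adjusted p = 0.108). Over the 5 other times this list had a median of 0.031, and Tat stood at -0.000014 on the log2 scale. There 2 of its genes passed as higher and 1 as lower, against 5.76% and 6.61% of all genes. Of 21 gluconeogenesis and glycogen genes, which also include Pck1 and Tat, 2 were negative at CT24 and the median was 0.50. Over the 5 other times 4 of the 21 passed as higher and 1 as lower, against 5.76% and 6.61% of all genes. The median there was 0.14. Of 27 urea cycle and amino acid genes, 1 was negative, the median was 0.44 and none was called, although 21 had an unadjusted p under 0.05. Ass1, which joins citrulline to aspartate, read 1347 and 1067 against 1744 and 2665 (adjusted p = 0.0627). That list passed broadly over the 5 other times, with 17 of 27 higher against 5.76% of all genes. Hepatocyte markers moved in the same direction, as given above, and their part was not tested. The list of fasting and PPAR-alpha genes, which holds neither Pck1 nor Mfsd2a, had 0 of 27 called by edgeR at CT24 (5 at an unadjusted p under 0.05), with 11 negative and a median of 0.20. Angptl4, an inhibitor of lipoprotein lipase, read 17.9 and 16.9 in CON and 45.8 and 58.3 in SD (adjusted p = 0.126), and Pdk4, a brake on pyruvate oxidation, read 17 and 13.5 against 9.8 and 8.18 (adjusted p = 0.405). Over the 5 other times 16 of the 27 passed as higher, against 5.76% of all genes. Of 18 core clock genes, 6 were negative, the median was 0.11 and none was called.

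**Figure D2:**
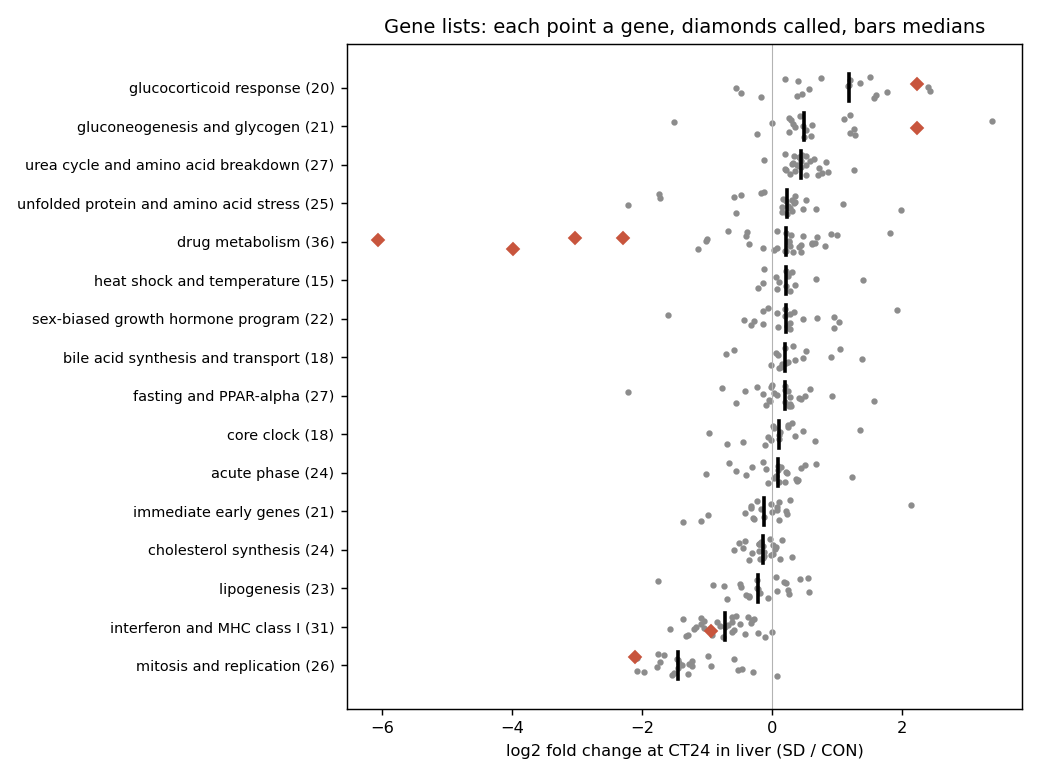
Log2 fold change (SD against CON) at CT24 in liver for each tested gene of 16 lists, ordered by list median, with the number of genes tested in parentheses. Grey points are genes not called, diamonds are called genes and black bars are medians. The lowest medians are those of mitosis and replication (-1.44) and of interferon and MHC class I (-0.72), and the highest is that of glucocorticoid response (1.19).

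Averaged over the other times, the lower genes had negative changes. In the test of SD against CON over CT4, CT8, CT12, CT16 and CT20, which used none of the CT24 libraries, 2438 of 19708 genes passed (12.4%), 1135 as higher (5.76%) and 1303 as lower (6.61%). Of the 39 genes lower at CT24, 33 passed as lower and all 39 had a negative change. Of the 8 higher genes, 3 passed as higher, and 6 had a positive change. Without the library labelled CT16 SD replicate 1, 39 of the 47 genes passed in their CT24 direction instead of 36, while 4937 genes passed over all. With library totals alone as the scale, the median gene shifted by -0.14 at CT24 and by -0.13 over the 5 other times, the split of all genes passing there became 257 higher and 2513 lower, and 37 of the 47 passed in their CT24 direction.

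By role, every gene of 3 groups passed over the 5 other times. These were all 5 glutathione transferase genes (median log2 fold change -1.35, against -2.45 at CT24), all 4 other drug and redox genes (-1.23 against -2.53) and all 8 interferon and leukocyte genes (-0.70 against -1.31). Of the replication and mitosis genes 11 of 12 passed (-0.89 against -1.63), Pola2 being the exception at -0.010. Of the remaining lower genes 5 of 10 passed, with Aqp8, Sema4c, Gm11639, Zfp382 and Pparg not passing. Among the higher genes 4833411C07Rik, Syce1 and Ces3b passed, and Mfsd2a, Pck1, Cnnm1, Gm5417 and Arl4d did not. The adjusted p-values of the 36 lay between 0.00069 and 0.0319.

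The largest changes over the 5 other times were again in Gsta1 (log2 fold change -3.64, SE 0.53, adjusted p = 0.0011) and Cyp2a4 (-2.34, SE 0.30, adjusted p = 0.00071). Gm42375 followed at -2.10, Abcc12 at -1.98, Gstm2-ps1 at -1.38, Gstm1 at -1.35 and Gstm3 at -1.30. Next came Knl1 at -1.16, Depdc1a at -1.14, Gbp4 at -1.09, Pclaf at -1.07, Prc1 at -1.05, Racgap1 at -0.98, Art2b at -0.98 and Uhrf1 at -0.94. Gstm1 ranged from 826 to 2814 scaled CPM over the 10 CON libraries of those times (median 1574) and from 432 to 1103 over the 10 SD libraries (median 635). Gbp4 ranged from 12.4 to 34.8 in CON (median 18.4) and from 6.6 to 13.6 in SD (median 9.07), so the highest SD library barely exceeded the lowest CON library. Cyp2a4 ranged from 12.5 to 169 in CON (median 53.6) and from 2.24 to 71.6 in SD (median 11.6), with a wide overlap. Ces3b, on the higher side, ranged from 315 to 525 in CON (median 378) and from 475 to 657 in SD (median 572).

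Time by time, the lower genes differed most widely at CT8 and least at CT12. Their median change was -0.73 at CT4, -0.96 at CT8, -0.46 at CT12, -0.62 at CT16 and -0.80 at CT20, and the median of all genes was within 0.024 of 0 at each. Both SD libraries lay under both CON libraries in 31 of the 39 genes at CT4, 33 at CT8, 24 at CT12, 34 at CT16 and 32 at CT20, where 21.7%, 19.8%, 20.4%, 16.3% and 21.7% of all genes did so. The sign was negative at every one of the 5 times in 30 of the 39 genes, against 11.8% of all genes, and in the same number when CT16 was left aside. Among the 8 higher genes both SD libraries lay above both CON libraries in 4, 3, 3, 3 and 6 genes at CT4 to CT20, where 20.6%, 23.3%, 25%, 18.6% and 22.5% of all genes did so. Single times reached the threshold in few genes. At CT8 Racgap1, Knl1 and Ncapd2 passed as lower, each with an adjusted p of 0.0393, of 15 genes that did so over all genes (0.0761%). In all 16 genes passed at CT8 (0.0812%), 1 of them as higher (0.00507%). None of the 47 genes passed at the other 4 times, where edgeR called 3 genes at CT4 (0.0152%, 1 or 0.00507% higher and 2 or 0.0101% lower) and 0 at CT12, CT16 and CT20. At those 3 times 1435, 2640 and 1580 genes had an unadjusted p under 0.05.

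The 8 interferon and leukocyte genes had SD libraries under CON libraries at all 5 times in every gene. Of all genes 16.3% to 21.7% did so at single times, and the share that did so at all 5 was not computed. The replication and mitosis genes had a median change of -0.20 at CT12. Both SD libraries lay under both CON libraries in 7 of 12 at CT12, against 20.4% of all genes. Lig1 at -0.93, Uhrf1 at -0.72 and Pclaf at -0.58 were the lowest there. Some mitotic genes, chosen after their values were seen, were near CON at that time. Knl1 changed by 0.17, Ncapd2 by 0.0029, Racgap1 by -0.13 and Depdc1a by 0.35 on the log2 scale, after changes of -1.98, -1.20, -1.85 and -2.77 at CT8. Racgap1 read 17.2 and 9.55 scaled CPM in CON and 2.86 and 4.60 in SD at CT8, and 6.84 and 8.13 against 5.52 and 8.25 at CT12. Cyp2a4 changed by -3.62 at CT4, -3.78 at CT12 and -3.10 at CT16, but by -1.02 at CT8 and -0.20 at CT20, when its SD libraries read 71.6 and 24.7 and its CON libraries 45.3 and 64.9. No test of a difference between single times was made for these genes.

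Pck1 and Mfsd2a varied with time in control liver. Pck1 averaged low in CON at CT8 (412 and 629) and CT12 (404 and 522) and high at CT4 (1832 and 1851) and CT16 (1837 and 1945), and it varied over the 5 times in control liver (adjusted p = 0.0024). At CT20 it read 1624 and 1451 in CON and 4091 and 2856 in SD, and at CT4 1832 and 1851 in CON against 1742 and 1042 in SD. Its CON libraries had come down by CT24 from their level at CT20. The SD libraries, at 1199 and 2632 at CT24, also lay under their CT20 values. Mfsd2a read 10.6 and 11.5 in CON and 37.1 and 42.9 in SD at CT20, and it also varied over the day (adjusted p = 0.0020). In all, 8 of the 47 genes varied over the 5 times in control liver, against 10.3% of all genes. The other 6 were Aqp8 (adjusted p = 4.7e-06), Racgap1, Prc1, Syce1, Gbp4 and Depdc1a (0.0255 to 0.0492).

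**Figure D3:**
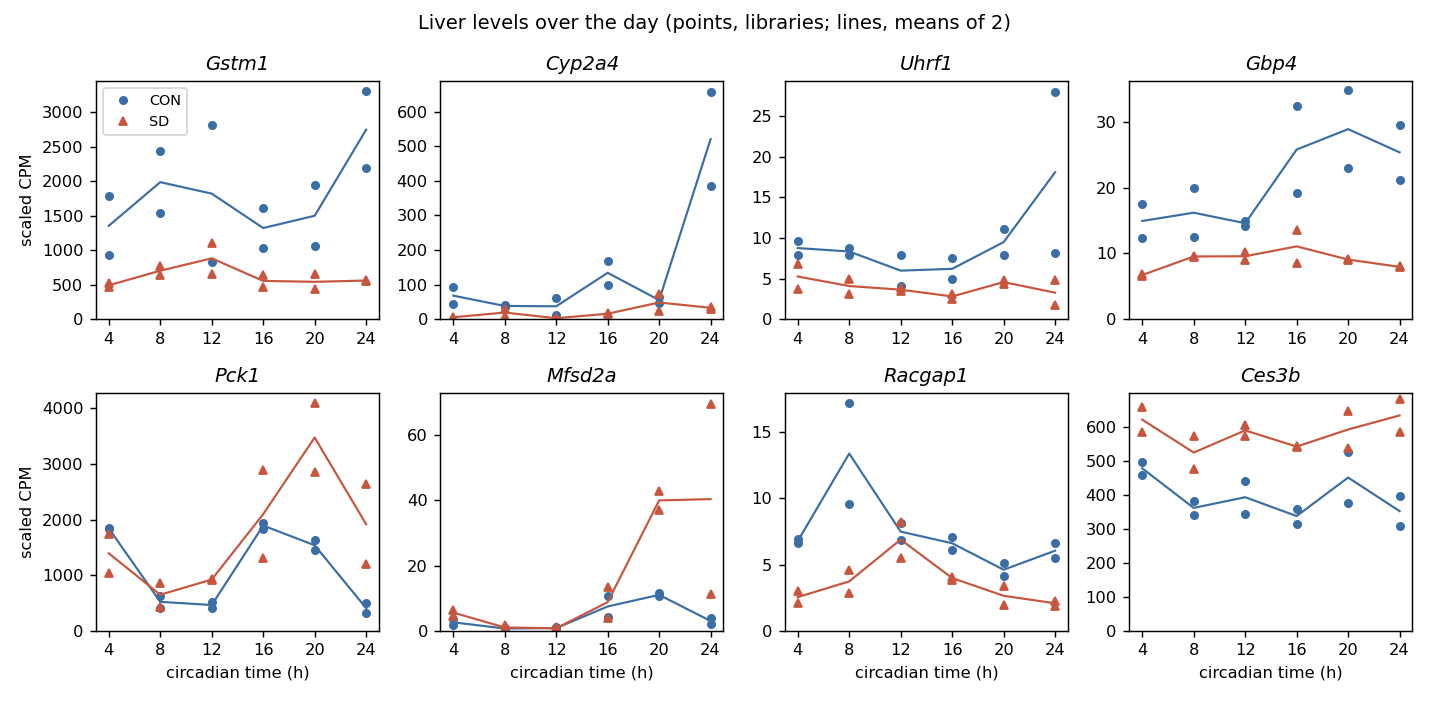
Scaled CPM of 8 called genes in all 24 liver libraries against circadian time in hours, with circles for CON, triangles for SD and lines through the means of 2 libraries. Gstm1, Uhrf1 and Gbp4 run lower in SD and Ces3b runs higher at the means of all 6 times. Racgap1 meets CON at CT12, and Gstm1, Cyp2a4 and Uhrf1 have their highest CON means at CT24.

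The changes at CT24 were larger in size than those over the other times in all 47 genes, which a choice by the CT24 values favours. In the test of the difference between CT24 and the mean of the 5 other times, edgeR called 0 of 19708 genes (1031 at an unadjusted p under 0.05, lowest adjusted p = 0.469), and DESeq2 called 11. So edgeR showed no gene to respond differently at CT24 with all libraries and the low-count filter, and without that filter it called 278 genes. Of the 47 genes 34 had an unadjusted p under 0.05 in it, a count that the choice of genes raises. The smallest were Arl4d, with a difference of 1.23 (SE 0.22), and Gm5417, with 2.08 (SE 0.43), both of which were slightly negative over the other times.

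The choice of genes favours high CON and low SD values at CT24, so their place among the other libraries is given as a description only. In 14 of the 39 lower genes the CT24 CON mean exceeded every one of the 10 other CON liver libraries, among them Gstm3, Cyp2a4, Gsta1, Abcc12 and Uhrf1. In 15 of the 39 the CT24 SD mean lay under each of the 10 other SD libraries, among them Aox1, Gstm4, Dnmt1, Plau and Pparg. Lig1, Zfp382, Pola2 and Ncapg2 were in both counts. For Cyp2a4 the CON mean was 521 scaled CPM at CT24 against a highest value of 169 elsewhere, while the SD mean, 32.8, was inside the range of the other SD libraries. For Arl4d, Cnnm1 and Gm5417 the CT24 SD mean exceeded all other SD libraries.

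**Figure D4:**
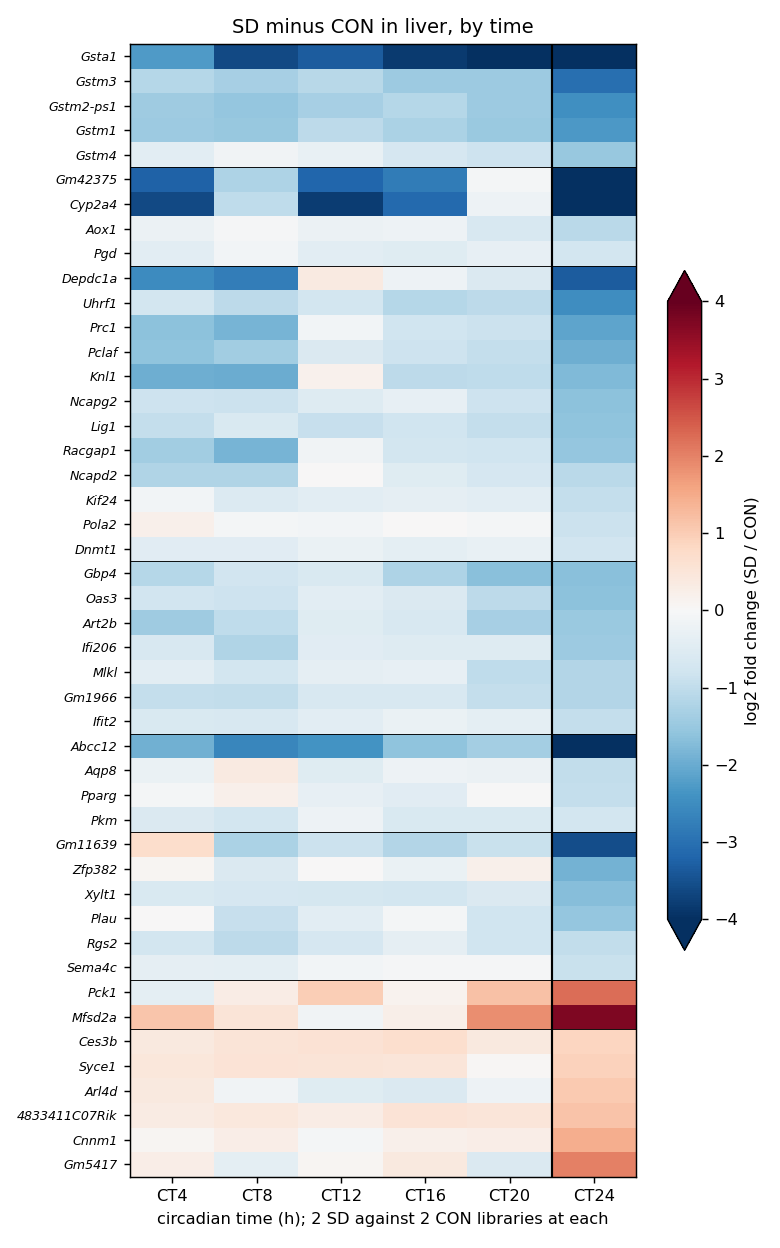
Log2 fold change of SD against CON for 46 of the 47 called genes (rows, ordered by role as in the plot of levels) at the 6 times in liver (columns), with blue for lower and red for higher in SD and colours held at the ends beyond 4. The CT24 column, right of the black line, is the one that chose the genes. The drug, replication and interferon rows are blue in nearly all columns, with pale cells in the mitotic rows at CT12 and for Cyp2a4 at CT20.

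**Figure D5:**
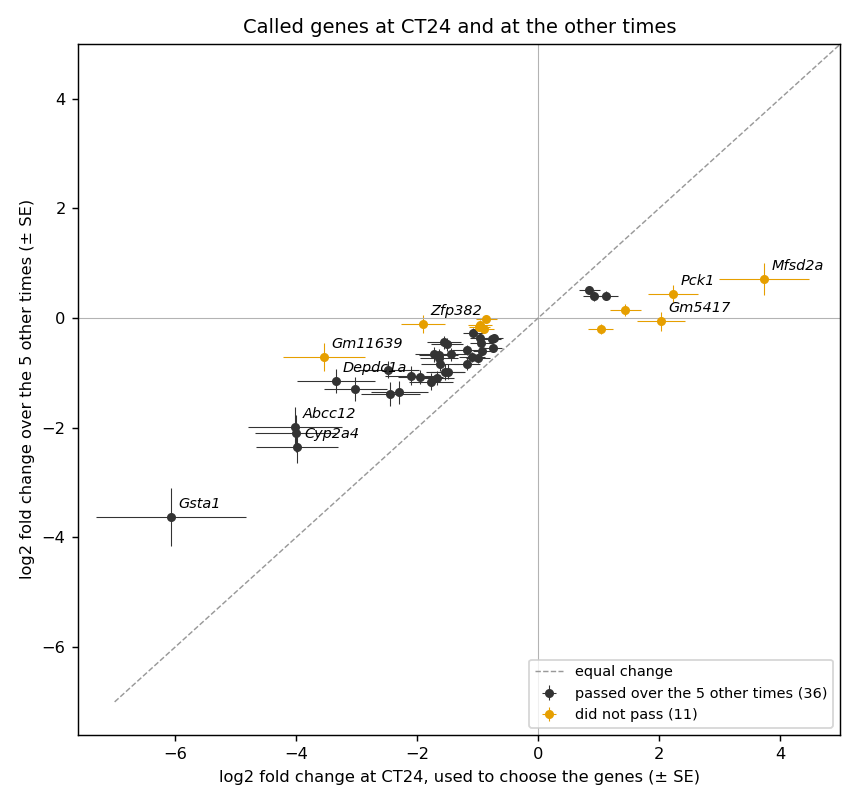
Log2 fold change over the 5 other times (vertical axis) against that at CT24 (horizontal axis) for the 47 genes, with bars of 1 SE on both. Dark points passed the 5-time test (36 genes), orange points did not (11 genes), and the dashed line marks equal change. The lower genes lie below 0 on both axes and nearer to 0 on the vertical one, and 2 of the 8 higher genes fall just under 0 on it.

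Most of the lower liver genes tested in kidney had a negative change there at CT24, though few were called. For this series the study does not say whether kidney and liver came from the same mice. For the 4 kidney libraries the title gave CT24 while another label gave a different time, and the title was used here. In kidney 65 of 21528 genes were called (0.302%), 57 of them lower in SD (0.265%) and 8 higher (0.0372%). Of the 37 lower liver genes tested there, 30 had a negative change with a median of -0.45, and both SD libraries lay under both CON libraries in 25, against 22.6% of all genes tested. Racgap1 (log2 fold change -0.93, adjusted p = 0.0463) and Ncapd2 (-0.59, adjusted p = 0.0167) were called. Racgap1 read 10.2 and 10.5 scaled CPM in kidney CON and 5.59 and 5.30 in SD. Uhrf1 read 10.6 and 11.2 against 5.83 and 6.16 (adjusted p = 0.0501), and Gbp4 25.9 and 33.9 against 11.9 and 11.1 (adjusted p = 0.0607).

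None of the glutathione transferase and other drug and redox genes was called in kidney, and their values went both ways. Aox1 read 5.91 and 8.2 scaled CPM in CON and 1.32 and 4.16 in SD (adjusted p = 0.617), and Pgd read 124 and 148 against 96.4 and 103 (adjusted p = 0.196). Gstm1 read 221 and 258 scaled CPM in CON and 260.5 and 262 in SD there, a log2 fold change of 0.13 (adjusted p = 0.768), and Cyp2a4 read 49.0 and 23.8 against 47.3 and 42.2. Pck1, abundant in kidney, read 3847 and 3953 against 4508 and 3912. No difference between the organs was tested for these genes. In forebrain and cerebellum edgeR called 0 genes at CT24 and DESeq2 called 1 in each. The unadjusted p was under 0.05 in 704 and 577 genes by edgeR. Of the lower liver genes, 17 of 33 tested in forebrain and 20 of 29 in cerebellum were negative, with medians of -0.0048 and -0.089. Both SD libraries lay under both CON libraries in 7 and 9 of them, where 20.1% and 20% of all genes tested did so. Of the 8 higher liver genes, 4 of 7 were positive in kidney, 4 of 7 in forebrain and 5 of 5 in cerebellum, and none was called. Both SD libraries lay above both CON libraries in 1, 2 and 1 of them, where 25.2%, 19.1% and 20.5% of all genes tested did so.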

How the data were processed

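RNA of liver, kidney, forebrain and cerebellum was measured by stranded total RNA sequencing. Per the labels and the study's methods, the authors trimmed reads with Trim Galore (0.6.4), aligned them to GRCm38 with HISAT2 (2.1.0), kept alignments of mapping quality 60 with Samtools (1.9) and assigned them to GENCODE genes by strand with featureCounts (1.6.4). The deposited values are whole-number counts per gene, not normalized, for 54833 features, of which 5248 are numbered loci without a symbol. Keeping unique alignments lowers the counts of near-identical genes.

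From these counts, edgeR (4.0.16, R 4.3.3) was used with TMM factors, a filter on low counts (filterByExpr, minimum count 10) that left 19708 liver genes, and the quasi-likelihood F-test with Benjamini-Hochberg adjustment over all genes, called under 0.05. One model held all 24 liver libraries in 12 groups of 2. Its contrasts gave CT24 and the difference of CT24 from the mean of the 5 others. The tests of each other time, the 5-time test and the day test in control liver were made without the CT24 libraries. Other organs were tested in models of their own. Scaled CPM are counts divided by the library total and TMM factor. DESeq2 (1.42.0) was an alternative, besides other scalings, filters, blocks and leaving out each library. The code was tested on simulated counts.

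The genes, their roles, the gene lists and the motifs were chosen with earlier results of these data known. Genes named with full values are the 12 largest falls among called genes averaging at least 1 CPM, the higher genes, called genes on the lists, and the 15 largest in the 5-time test. Others were named after their values were seen, and 1 called gene is counted but not reported here. Samples were grouped by title. Libraries were not identical to each other. Same-numbered replicates did not deviate together, and the numbers were not used as pairs. Intervals cover counting error only.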

Additional observations from a re-analysis of the deposited data

Results flagged for a closer look

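Some of the called genes lay on one side in both SD libraries of CT24 liver and on the opposite side in both SD libraries of another organ or time, relative to both CON libraries. None of these differences between organs or between single times was tested. Values are log2 fold changes of SD against CON.

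Gstm1, at -2.29 in liver, stood at 0.13 in kidney, 0.11 in forebrain and 0.36 in cerebellum. In kidney Gm42375 stood at 0.43, Plau at 0.32 and Art2b at 0.82 against falls in liver, and Mfsd2a at -0.52 against a rise. In forebrain Abcc12 stood at 1.09 and Rgs2 at 0.28 against falls in liver, and Syce1 at -1.73 against a rise. Abcc12 (0.131 to 0.638 scaled CPM) and Syce1 (0.0619 to 0.527) in forebrain and Art2b in kidney (0.291 to 0.691) were under 1 CPM in all 4 libraries, where few reads decide the side. Pparg stood at 0.41 in cerebellum.

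Within liver, Aqp8 stood at 0.37 and Pparg at 0.21 at CT8, and Gm11639 at 0.69 at CT4, all being lower in SD at CT24. Among the genes higher at CT24, Pck1 stood at -0.4 at CT4, Arl4d at -0.49 at CT12 and -0.58 at CT16, and Gm5417 at -0.4 at CT8 and -0.58 at CT20. For these genes the difference of CT24 from the mean of the 5 other times did not pass in edgeR.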

How the results depend on the processing

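All of the 47 genes kept their CT24 direction under every alternative that gave them a value, but the number of genes called at CT24 moved widely. Against 47, it was 173 with the CT4, CT20 and CT24 libraries (42 of the 47 among them) and 136 with the 4 CT24 libraries alone (30 of the 47). It was 35 with a robust estimate of the spread (33 of the 47). DESeq2 called 434, library totals gave 309 (31 higher and 278 lower), a mean of at least 1 CPM 73 and no filter 1102. Leaving out single CT24 libraries gave 0 to 303, the lowest without CON replicate 2 or SD replicate 2, and leaving out the library labelled CT16 SD replicate 1, chosen after seeing the data, gave 186. The replicate number as a block gave 54 (39 of the 47 among them) and a replicate block within time gave 30 (19 of the 47). The numbers share no stated origin, and same-numbered libraries had correlations of -0.067 to 0.126 within times.

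The 5-time test called 1670 to 4937 genes with single libraries left out against 2438, the highest without the library labelled CT16 SD replicate 1, and 34 to 39 of the 47 passed in their CT24 direction. With the replicate number as a block these were 2479 and 36. In the difference test, 0 by edgeR, DESeq2 called 11, no filter 278 and single libraries left out 0 to 1. The day test, 2034, became 3776 by DESeq2, 4566 with no filter and 979 to 1734 with single libraries left out, and the 8 genes that varied became 13, 22 and 3 to 10. In kidney, 65 became 270 by DESeq2, 21 with library totals, 1044 with no filter, 0 to 21 with single libraries left out and 85 with the replicate number as a block. No filter gave 5 genes in forebrain and 112 in cerebellum, and DESeq2 gave 1 in each. The causes were not tested.

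Over the 5 other times Gm5417 ranged from -0.16 to 0.11 and Pola2 from -0.063 to 0.034 on the log2 scale with single libraries left out. Gm5417 was positive in 5 of these and Pola2 in 4, so neither has a direction there. With 2 libraries a group and 7 or fewer pooled SD counts, Gsta1, Depdc1a and Gm11639 have wide intervals.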
